A study of Mus musculus with 3 samples.

Results

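The sirtuins, the NAD-dependent deacylases encoded by Sirt1 to Sirt7, were followed in mouse LSK cells, the lineage-negative, Sca-1-positive and Kit-positive fraction in which haematopoietic stem cells and multipotent progenitors are found. All 7 genes, of 18194 named on the array, were taken, with the 9 probe sets annotated to them of 45101 in all. The family was chosen by the signals of Sirt2, which is among the genes most reduced on the array of p53-deficient cells, so that difference is given as a description and supports nothing. The data are 3 Affymetrix arrays of 1 genotype each: wild type (WT), p53 knockout (p53 KO, p53 -/-) and double knockout (DKO, p53 -/- Mef -/-), where Mef is the ETS transcription factor that Elf4 encodes. Loss of p53 is thus shared by both knockout arrays, and the wild type array is the single reference for both. The type of knockout allele, the strain, age and sex of the mice and the number of animals behind an array are not given in the sources used here. There are no replicates, so no difference below has an error or a test.

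Sirtuins remove acetyl or longer acyl groups from lysine side chains and consume NAD in each reaction, which ties their activity to the supply of that cofactor. Sirt1, Sirt6 and Sirt7 act mainly in the nucleus, Sirt2 mainly in the cytoplasm, and Sirt3, Sirt4 and Sirt5 in mitochondria. Sirt1 is known to deacetylate p53 itself, and Sirt3 and Sirt7 are known for roles in the mitochondrial stress responses of haematopoietic stem cells.

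Upstream sequence is shown for Sirt2 and Sirt4, whose windows were taken because each held at least 2 matches to the pattern below. These genes also had the lowest log2 differences of the family on the p53 KO array by the probe set used for each gene. Another probe set of Sirt5, at -1.10, was lower than that of Sirt4, at -0.97. The sequences are RefSeq's, build GRCm38.p6, from 250 bases before the annotated start site to the first 10 transcribed bases, 5′ to 3′ on the gene's own strand. Sirt2 lies at chr7:28766502-28766761 on the plus strand and Sirt4 at chr5:115484288-115484547 on the minus strand. Capitals mark matches, on either strand, to ACTACA followed after any 2 bases by TCCC, a pattern close to the element known to be bound by the zinc finger factor ZNF143.
Sirt2 promoter: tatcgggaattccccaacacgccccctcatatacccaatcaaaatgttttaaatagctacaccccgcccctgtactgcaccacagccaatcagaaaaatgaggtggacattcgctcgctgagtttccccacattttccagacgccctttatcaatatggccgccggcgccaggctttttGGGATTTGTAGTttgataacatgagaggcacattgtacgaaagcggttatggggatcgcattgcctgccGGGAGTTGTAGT
Sirt4 promoter: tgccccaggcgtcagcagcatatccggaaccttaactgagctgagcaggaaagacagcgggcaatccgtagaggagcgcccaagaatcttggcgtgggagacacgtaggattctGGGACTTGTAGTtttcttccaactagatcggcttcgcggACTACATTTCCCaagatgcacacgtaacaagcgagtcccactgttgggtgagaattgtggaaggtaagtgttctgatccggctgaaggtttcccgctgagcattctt
Each of these windows held 2 matches, the number for which they were chosen to be shown. With strands named relative to the printed sequence, in the Sirt2 window they read ACTACAAATCCC and ACTACAACTCCC on the minus strand, the latter crossing the start site. In the Sirt4 window they read ACTACAAGTCCC on the minus strand and ACTACATTTCCC on the plus strand. Among 32851 RefSeq promoter windows of 250 bases before and 50 after a start site, 1.81% held at least 1 match and 0.244% held 2 or more. None of the other 7 sirtuin windows (Sirt3 and Sirt6 have 2 each) held the pattern, which was chosen after the sequences were read. The CCAAT box (CCAAT, both strands) was matched in the windows of Sirt2, Sirt3 and Sirt5, against 37.4% of all windows. The GC box GGGCGG was matched in 6 of the 9 sirtuin windows, against 35.7%, with 7 matches in that of Sirt1, some of which overlap. The E-box CACGTG was matched in the Sirt1 window alone, against 7.15%. The 10-letter p53 half-site consensus was matched in 0 of the 9 sirtuin windows, against 8.36% of all windows. A match describes these letters and is not a binding site, and a missing match says nothing of the factor.

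Signals are the deposited linear intensities, whose 2% trimmed mean was 500.0 on each array. Median signals over all probe sets were 98.0 for WT, 105 for p53 KO and 129 for DKO. Signals under 110.4, the median of all signals, were raised to that floor before log2 was taken, and a gene that reached it on at least 1 array counted as measured, which was so for 12597 genes and for all 7 sirtuins. All 12 stem cell genes on the array were over the floor on every array. The Kit signal was 4996 for WT, 2522 for p53 KO and 4873 for DKO, and Flt3, a receptor of multipotent progenitors, had 2387, 1492 and 4728. These are the lowest of the 12 on p53 KO against WT, where 7 of 12 were above WT, such as Mecom at 0.62, and the median was 0.13. Elf4, the targeted gene, had signals of 57.4, 182 and 151 on 1 probe set and 74.3, 173 and 129 on another. Both WT signals lie under the floor, so a loss against WT could not have been seen on the array labelled DKO. Whether its probe sets lie in the deleted part is not given, so directions against that array rest on its label. The level of p53 is not reported here.

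**Figure D1:**
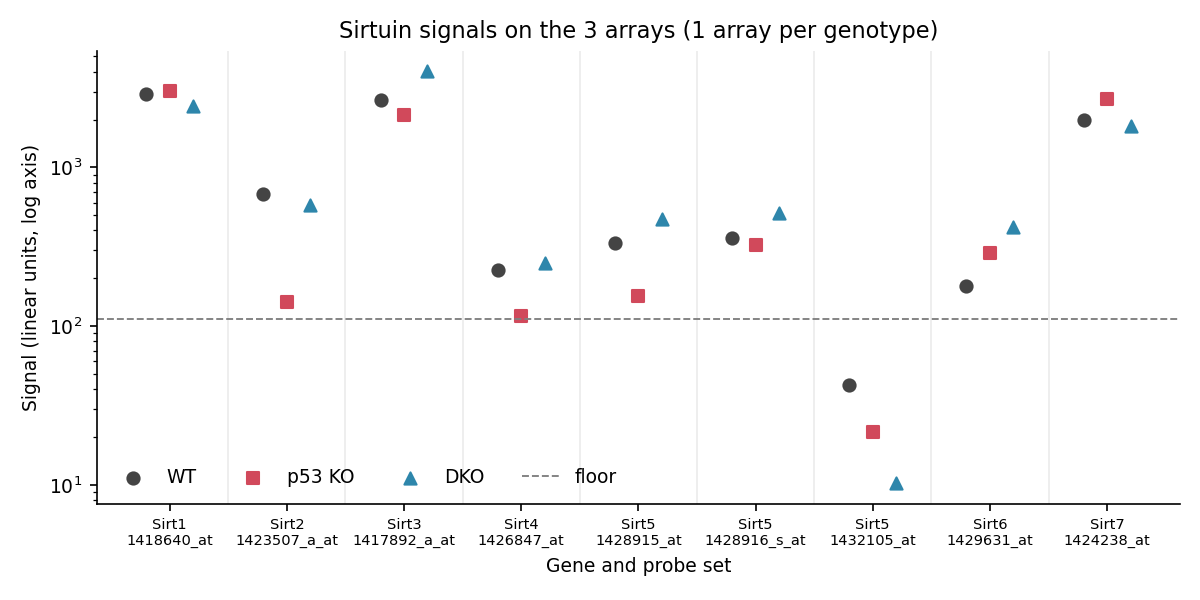
Signals of the 9 sirtuin probe sets (linear units on a log axis) by array (WT, p53 KO and DKO), 1 point each, with the floor of 110.4 as a dashed line. The Sirt2 probe set stands at 142 on the p53 KO array, under its 679 on WT and 580.3 on DKO, and 1 of the 3 Sirt5 probe sets lies under the floor on every array.

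Sirt2, the deacetylase of alpha-tubulin, histones and metabolic enzymes, was low on the p53 KO array only. Its signal was 679 on WT, 142 on p53 KO and 580.3 on DKO. The p53 KO value was 4.78-fold under WT (log2 difference -2.26), while the DKO value was within 1.17-fold of WT (-0.23). It was the 9th lowest of 7699 named genes that reached the 75th percentile of signals (448.4) on some array. Next to it in that order were Ccdc68 at -2.28, with a value under the floor, and Ccdc86 at -2.18. Among all 12597 measured genes, 9 were as low or lower, Sirt2 included, which is 0.0714%. DKO against p53 KO shares the p53 KO array with this comparison, and there Sirt2 was at 2.03, with 0.119% of measured genes as high or higher. Sirt2 is read by 1 probe set, so no other probe set stands beside it. Its p53 KO signal is close to the floor. With the floor raised to the 75th percentile of signals the p53 KO value lies under it, and the log2 difference from WT is only bounded, at -0.60.

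Across the family, 1 of 7 sirtuins, Sirt2, was at least 2-fold lower on p53 KO than on WT, where 3.19% of measured genes were, and 0 were at least 2-fold higher, where 6.51% were. For DKO against WT, 1 was at least 2-fold higher, Sirt6, where 5.22% of measured genes were, and 0 were at least 2-fold lower, where 3.1% were. For DKO against p53 KO, 2 were at least 2-fold higher, Sirt2 and Sirt4, where 4.1% were, and 0 were lower by that measure, where 5.93% were. Median log2 differences of the 7 genes in the same order were -0.17, 0.15 and 0.67, beside medians of 0, 0.07 and 0.11 over all measured genes. The p53 KO array gave the lowest value of 4 sirtuins, Sirt2 to Sirt5, and of 34.7% of measured genes. The DKO array gave the highest value of 4, Sirt3 to Sirt6, and of 42.2% of measured genes. For Sirt4 this held with the deposited signals, but not with quantile normalization or cyclic loess. Sirt2, whose low p53 KO value chose the family, is included in the counts that involve that array, so those counts are description only. Since the 3 comparisons share arrays, they are not separate evidence.

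**Figure D2:**
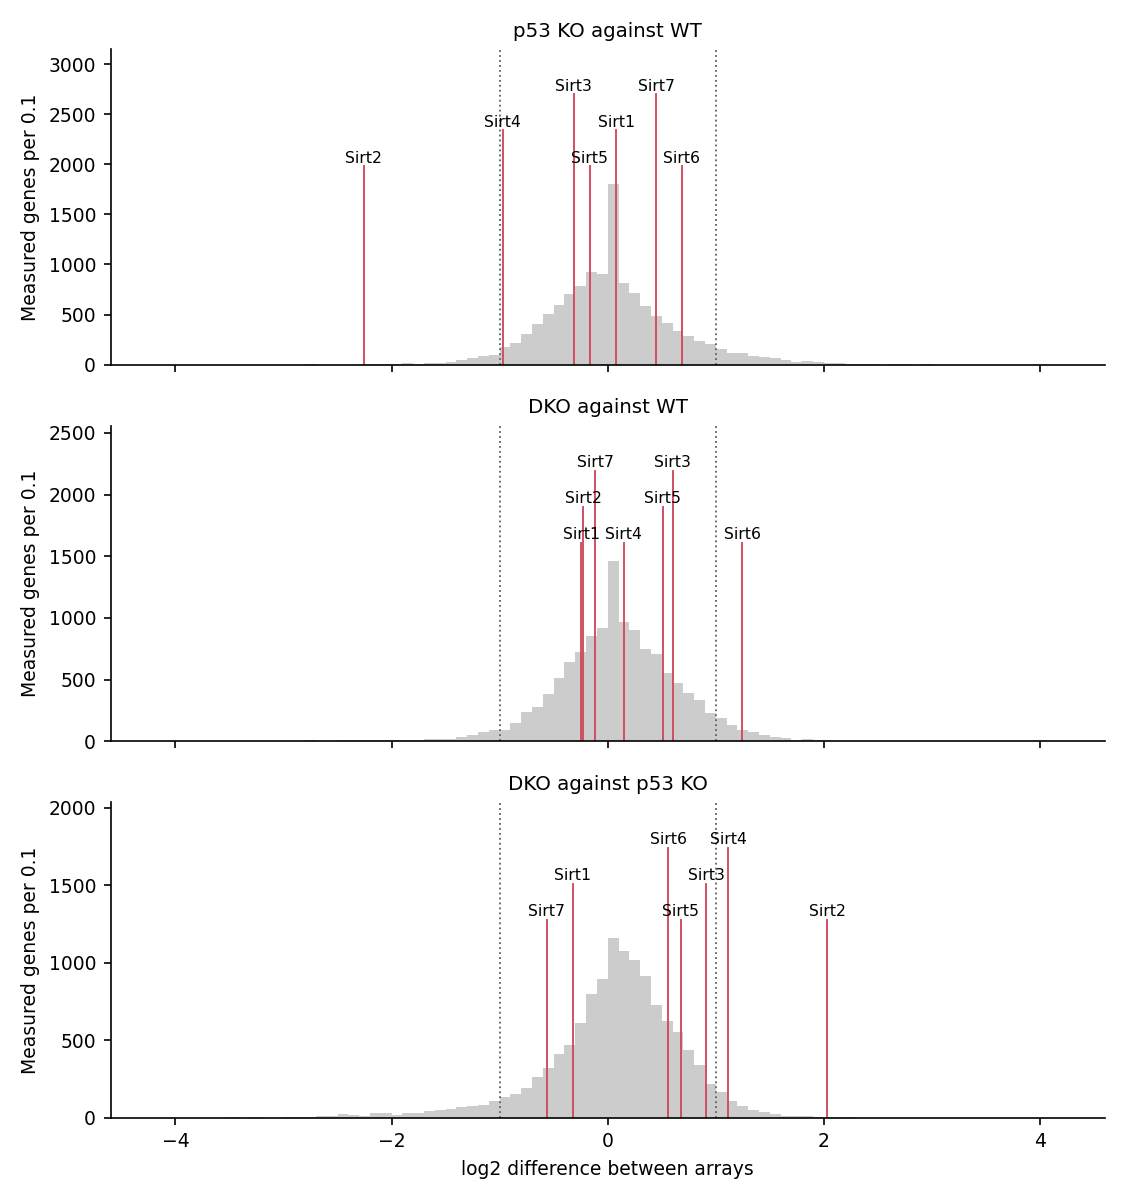
Log2 differences of the 12597 measured genes for each pair of arrays, as counts per bin of 0.1 (grey), with the 7 sirtuins marked in red and 2-fold limits dotted. Sirt2 lies at -2.26 for p53 KO against WT and at -0.23 for DKO against WT, and Sirt6 lies past the 2-fold limit at 1.24 for DKO against WT. The bin that starts at 0 also holds genes under the floor on both arrays.

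Of the nuclear sirtuins, Sirt1, a deacetylase of histones and transcription factors, varied least. Its signal was 2877 on WT, 3035 on p53 KO and 2425 on DKO, a span of 1.25-fold. The log2 differences from WT were 0.08 and -0.25. Sirt7, a nucleolar deacetylase linked to transcription of ribosomal RNA genes, had 1984, 2712 and 1832. It was highest on the p53 KO array, at 0.45 over WT, and 1.48-fold lower on DKO than there. For both genes the DKO array was the lowest. Sirt6, a chromatin deacetylase that acts in DNA repair and in the restraint of glycolytic genes, had 179, 287 and 423. Its values were thus in the order WT, p53 KO, DKO, with log2 differences from WT of 0.69 and 1.24. The DKO difference was 2.37-fold, and 2.29% of measured genes were as high or higher. It was at or over 1.01 in the 3 alternatives that could move it. With the floor at the 75th percentile no array reached the floor and it was not measured. Its WT signal was the lowest of the 3 and lay not far over the floor.

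Of the mitochondrial sirtuins, Sirt3, the main deacetylase of mitochondrial enzymes, was measured well over the floor on every array, at 2654 on WT, 2136 on p53 KO and 4024 on DKO. It was 1.24-fold lower than WT on p53 KO and 1.52-fold higher on DKO. DKO was thus 1.88-fold over p53 KO (log2 difference 0.91), short of 2-fold. Sirt4, which is known to restrain glutamate dehydrogenase and pyruvate dehydrogenase, had 226, 116 and 250.7. The p53 KO value, only just over the floor, was 1.96-fold under WT (-0.97), which 3.6% of measured genes matched or passed, and quantile normalization and cyclic loess put it at -1.03 and -1.04, past 2-fold. DKO against WT was 0.15 for Sirt4 but -0.12 with quantile normalization and -0.17 with cyclic loess, so it has no settled sign. DKO against p53 KO was 1.12, a 2.17-fold difference, and fell short of 2-fold under those scalings, at 0.91 and 0.88. Sirt5, which removes succinyl, malonyl and glutaryl groups, has 3 probe sets. The brightest had 361, 322 and 514, with p53 KO at -0.17 and DKO at 0.51 from WT. Another had 333, 155 and 469.6, with p53 KO at -1.10, or 2.14-fold under WT, and DKO at 0.50. Both were lowest on p53 KO and highest on DKO, yet they part on whether the p53 KO value passed 2-fold. The third lay under the floor on all 3 arrays, at 42.6, 21.4 and 10.3, and gives no difference.

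For scale, the differences given by 2 measured probe sets of the same gene were compared over 5511 genes. The robust SD per probe set was 0.30 for p53 KO against WT and 0.35 for DKO against WT, on the log2 scale. It is the robust SD of the departure between the 2 probe sets, divided by the square root of 2. Signals were floored first, which can shrink a departure where signals lie under the floor, so the SD may be understated. Both probe sets read the same RNA, so animals and preparations add nothing to that spread. Among the differences from WT, those of Sirt1 on both knockout arrays, of Sirt2, Sirt4 and Sirt7 on DKO and of Sirt5's brightest probe set on p53 KO are smaller than the SD per probe set for the same comparison. That of Sirt3 on p53 KO, -0.31, is only just larger.

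Markers of several blood cell lineages were higher on the p53 KO array, where Sirt2 was low. The summed signal of the stem cell list was highest on the DKO array. In bulk samples, fewer cells of a type and less RNA per cell cannot be told apart. Against WT, 10 of 12 measured monocyte and macrophage genes, 10 of 11 B cell genes, 6 of 13 granulocyte genes and 6 of 11 megakaryocyte genes were at least 2-fold higher on p53 KO, beside 6.51% of all measured genes, and 0 of these were at least 2-fold lower, beside 3.19%. The summed signal of the monocyte and macrophage list was 29390 on WT, 77025 on p53 KO and 30006 on DKO. That of the B cell list was 2768, 10834 and 4030, that of the granulocyte list 141448, 250856 and 135063, and that of the megakaryocyte list 7112, 17345 and 11174. The mast cell, basophil and eosinophil list had 4196, 10754 and 5371, and the NK cell list 2107, 3928 and 3873. By summed signal these lists stood highest on the p53 KO array, where Sirt2 to Sirt5 were lowest, though the NK cell list was nearly level with DKO. Not every member followed its sum. Of the granulocyte list, 4 of 13 were higher on DKO than on p53 KO, such as Ctsg at 0.54, and 9 were lower. The erythroid list summed to 119717, 132490 and 36866, and was lowest on the DKO array, with 9 of 12 measured members at least 2-fold lower than WT, beside 3.1% of all measured genes. The stem cell list summed to 28249, 25203 and 47592, highest on the DKO array as were Sirt3, Sirt5, Sirt6 and, with the deposited signals, Sirt4. Its members were not uniform. Against WT, 11 of 12 were higher on DKO and 4 at least 2-fold, beside 5.22% of all measured genes, such as Cd34 at 1.57. Procr was at 0.11 and Kit at -0.04. Against p53 KO, 10 of 12 were higher on DKO, while Procr at -0.41 and Mecom at -0.31 were lower. T cell genes were mostly absent, with 8, 7 and 8 of 10 under the floor, while no granulocyte or B cell gene was under it on any array. The sort for lineage-negative cells should remove mature monocytes, granulocytes, B cells and red cells. The part of these cells in the sirtuin differences was not tested.

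Genes next to the sirtuins on the chromosome were compared by their order in the RefSeq gene table. Of 42 protein-coding neighbours, 3 on each side of each gene, 30 were measured. On p53 KO against WT, 0 of them were at least 2-fold lower and 1 was at least 2-fold higher, Gfod1 beside Sirt5 (1.09), where 3.19% and 6.51% of all measured genes were. Nfkbib, an inhibitor of NF-kappa-B, runs in the opposite direction from the gene start of Sirt2. Its signal was 366 on WT, 391 on p53 KO and 329.5 on DKO, so it was not lower where Sirt2 was. Sars2, a mitochondrial tRNA synthetase on the same side as Nfkbib, had 304, 216 and 211. On the other side of Sirt2, Rinl had 286, 349 and 341. Hnrnpl, which encodes a splicing regulator, had 107, 216 and 229, at least 0.97 and 1.05 over a WT value under the floor. Ech1, a fatty acid oxidation enzyme, had 2554, 2017 and 2324. The low p53 KO value of Sirt2 was thus not seen in its 5 measured neighbours, which lay between -0.50 and, as a bound, 0.97.

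Beside Sirt6, the divergent neighbour Ankrd24 had signals of 579, 877 and 1461. Both genes thus followed the order WT, p53 KO, DKO, with log2 differences from WT of 0.60 and 1.33 for Ankrd24 and 0.69 and 1.24 for Sirt6. On its other side the nearest gene, Tle6, had 361, 303 and 362, and Tle2, the next, had 178, 192 and 415 (1.22 on DKO). Tle5, beyond Tle2, had 233, 153 and 395 and was lowest on p53 KO, unlike Sirt6. On DKO against WT, 4 of the 30 measured neighbours were at least 2-fold higher, where 5.22% of all measured genes were, namely Ankrd24, Tle2, Gfod1 and, as a lower bound, Hnrnpl. On DKO against p53 KO, 3 were at least 2-fold higher and 1 lower, where 4.1% and 5.93% of all measured genes were. The higher ones were Tle5 (1.37), Tle2 (1.12) and Ric8a (1.03). Psmd13, the proteasome subunit gene that diverges from Sirt3, had 1677, 1492 and 1292 and was lowest, not highest, on DKO. Ric8a, on the other side of Sirt3, had 6284, 4080 and 8358, lowest on p53 KO and highest on DKO as Sirt3 was.

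**Figure D3:**
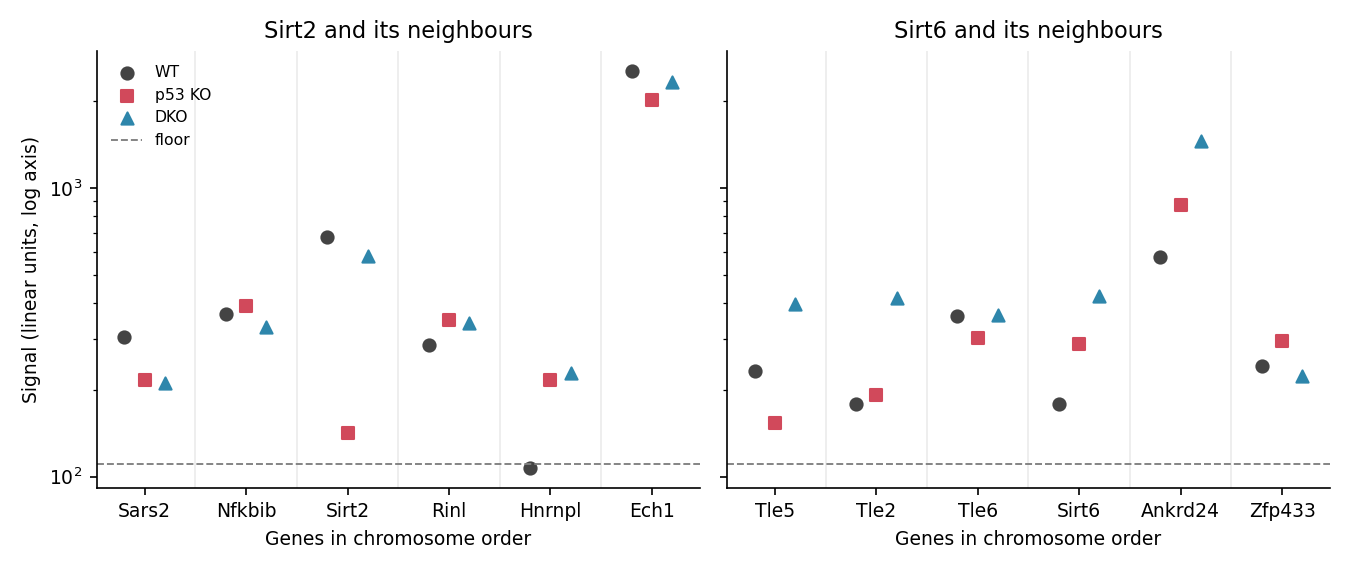
Signals (linear units on a log axis) of Sirt2, left, and Sirt6, right, with their measured neighbours in chromosome order, 1 point per array, and the floor of 110.4 dashed. Sirt2 alone of its row drops to 142 on the p53 KO array, and Ankrd24, beside Sirt6, stands at 579 on WT and 1461 on DKO.

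The genes whose pair of differences from WT lay nearest to that of Sirt2 were found among the 7699 bright named genes, by Euclidean distance over those 2 log2 differences. Nearest was Klf16, a Krüppel-like transcription factor, at a distance of 0.35, with signals of 693, 175 and 507. Arhgef25 followed at 0.42 with 625, 164 and 448, and the sialyltransferase gene St6galnac6 at 0.52 with 989, 282 and 1016. Rpap1, which encodes a protein associated with RNA polymerase II, had 1302, 401 and 1015. Polr3k, a subunit of RNA polymerase III, had 1572, 383 and 2013, and Ptbp1, a splicing regulator, had 3204, 886 and 1910.0. Yae1d1 and the aldo-keto reductase gene Akr1e1 completed the 8. All 8 were lowest on p53 KO, as the choice by likeness makes near certain, and with 3 arrays such likeness rests on 2 numbers per gene.

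Genes that make or use NAD were past 2-fold on p53 KO at about the share of all measured genes. Of 17 measured genes of NAD synthesis, 1 was at least 2-fold higher and 0 lower, against 6.51% and 3.19% of all measured genes, and the median was 0.07. Nampt, the rate-limiting enzyme of the salvage pathway from nicotinamide, had 824, 786 and 1052. Afmid, an enzyme of the kynurenine route, was higher on p53 KO by at least 1.28, with 45.3, 268 and 23.0. Nmnat1, the nuclear enzyme that completes NAD, had 233, 122 and 175, at -0.93 on p53 KO, Kmo was higher by at least 0.95 and Naprt was at 0.74. On DKO against WT, 3 of 17 were at least 2-fold lower, where 3.1% of all measured genes were. They were Nmnat3, which is known as the main enzyme of that step in red cells (1199, 1076 and 461, -1.38), the mitochondrial NAD kinase Nadk2 (2404, 2094 and 1076, -1.16) and the purine nucleoside phosphorylase Pnp (19067, 18522 and 9373, -1.02). Erythroid markers were also low on that array, as given above, and their part in this was not tested.

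Among other NAD consumers, 1 of 10 measured genes was at least 2-fold higher on p53 KO, the ADP-ribosyl cyclase gene Bst1, by at least 1.06 (109, 230.0 and 126), beside 6.51% of all measured genes. The list median was 0.15 there and 0.34 on DKO against WT. On DKO the poly(ADP-ribose) polymerase genes Parp3 (168, 186 and 488, 1.54) and Parp8 (553, 719 and 1142, 1.05) were at least 2-fold higher, beside 5.22% of all measured genes. Parp1, the main nuclear consumer of NAD after DNA damage, had 6340, 4566 and 8892, at -0.47 and 0.49 from WT. It was lowest on p53 KO and highest on DKO, the order that Sirt3 and Sirt5 had too. Sirt4 had that order with the deposited signals, but its DKO difference from WT has no settled sign. Parp2 was at -0.60 and -0.38.

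The zinc-dependent deacetylases, which need no NAD, had medians of -0.19 on p53 KO and 0.02 on DKO over 10 measured genes. At least 2-fold over WT were 1 of 10 on p53 KO and 2 of 10 on DKO, beside 6.51% and 5.22% of all measured genes. Hdac9 was higher on both knockout arrays (136, 308 and 275, at 1.18 and 1.01) and Hdac5 reached 2-fold on DKO (626, 1094 and 1270, 1.02). Hdac6, which deacetylates alpha-tubulin as Sirt2 does, had 359, 652 and 681, at 0.86 and 0.92 from WT. Its p53 KO value was thus above WT where that of Sirt2 was under it. Atat1, the alpha-tubulin acetyltransferase, had 259, 313 and 583, at 0.27 and 1.17. Of the 13 measured lysine acetyltransferases, 0 passed 2-fold on p53 KO, where 6.51% of all measured genes were higher and 3.19% lower by that measure, with Kat2b at 0.90 and Kat2a at -0.77 the furthest apart, and the median was 0.16. On DKO, 1 of the 13 was at least 2-fold higher, Atat1, and 1 lower, Esco2, the cohesin acetyltransferase of S phase (470, 820 and 210, -1.16). The shares of all measured genes there were 5.22% and 3.1%, and the list median was 0.01.

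Of 17 measured partners and substrates of Sirt1 and Sirt2, 1 was at least 2-fold higher and 1 lower on p53 KO, near the 6.51% and 3.19% of all measured genes, and the median was 0.22. The lower one was Acss2, the cytosolic acetyl-CoA synthetase that Sirt1 is known to activate, with 3587, 856 and 1575, at -2.07 and -1.19 from WT. The higher one was the glycolytic enzyme Pkm, with 1819, 4502 and 4505, at 1.31 on both. Rps19bp1, which encodes an activator of Sirt1, had 691, 356 and 411, at -0.96 and -0.75, while Ccar2, which encodes an inhibitor of Sirt1, had 310, 427 and 454, at 0.46 and 0.55. The FOXO factors that sirtuins deacetylate were between 0.30 and 0.74 over WT, with Foxo3 at 2769, 3626 and 4618 and Foxo4 at 0.67 on p53 KO.

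Of 20 measured substrates of the mitochondrial sirtuins, 15 were under WT on p53 KO and 3 above it, where 47% of all measured genes were under WT, and the median was -0.21. Of the 20, 1 was at least 2-fold higher and 0 lower on p53 KO, beside 6.51% and 3.19% of all measured genes. The higher one was Aldh2, an aldehyde dehydrogenase (3021, 6681 and 4221, 1.14). The superoxide dismutase Sod2, which Sirt3 is known to activate, had 9295, 5988 and 6288, at -0.63 and -0.56. Ppif, the cyclophilin of the mitochondrial permeability pore and a Sirt3 substrate, had 1084, 591 and 2171, at -0.88 on p53 KO and just past 2-fold over WT on DKO. Idh2, another Sirt3 substrate, had 2041, 1853 and 3452, so Ppif and Idh2 had the array order of Sirt3. On DKO against WT, 2 of the 20 were at least 2-fold higher and 1 lower, beside 5.22% and 3.1% of all measured genes. Acss1, the mitochondrial acetyl-CoA synthetase, was lower at -1.02 (2924, 2168 and 1438). Cps1, the urea cycle enzyme that Sirt5 acts on, was higher by at least 1.39 from values under the floor on WT and p53 KO.

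Partners and substrates of Sirt6 and Sirt7 had the lowest list median on p53 KO, -0.61 over 12 measured genes, beside 0 over all measured genes. Of the 12, 2 were at least 2-fold lower, where 3.19% of all measured genes were. These were Polr1b, a core subunit of RNA polymerase I (1866, 693 and 1203, -1.43 and -0.63), and the nucleolar helicase Ddx21 (2788, 1303 and 2097, -1.10 and -0.41). Polr1a followed at -0.99 and -0.76. Sirt7 itself, which acts in the same nucleolar machinery, was at 0.45 on p53 KO. Hif1a, the hypoxia factor that Sirt6 is known to restrain, had 1603, 2958 and 3396, at 0.88 and 1.08, and was thus higher on both knockout arrays, as Sirt6 was.

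**Figure D4:**
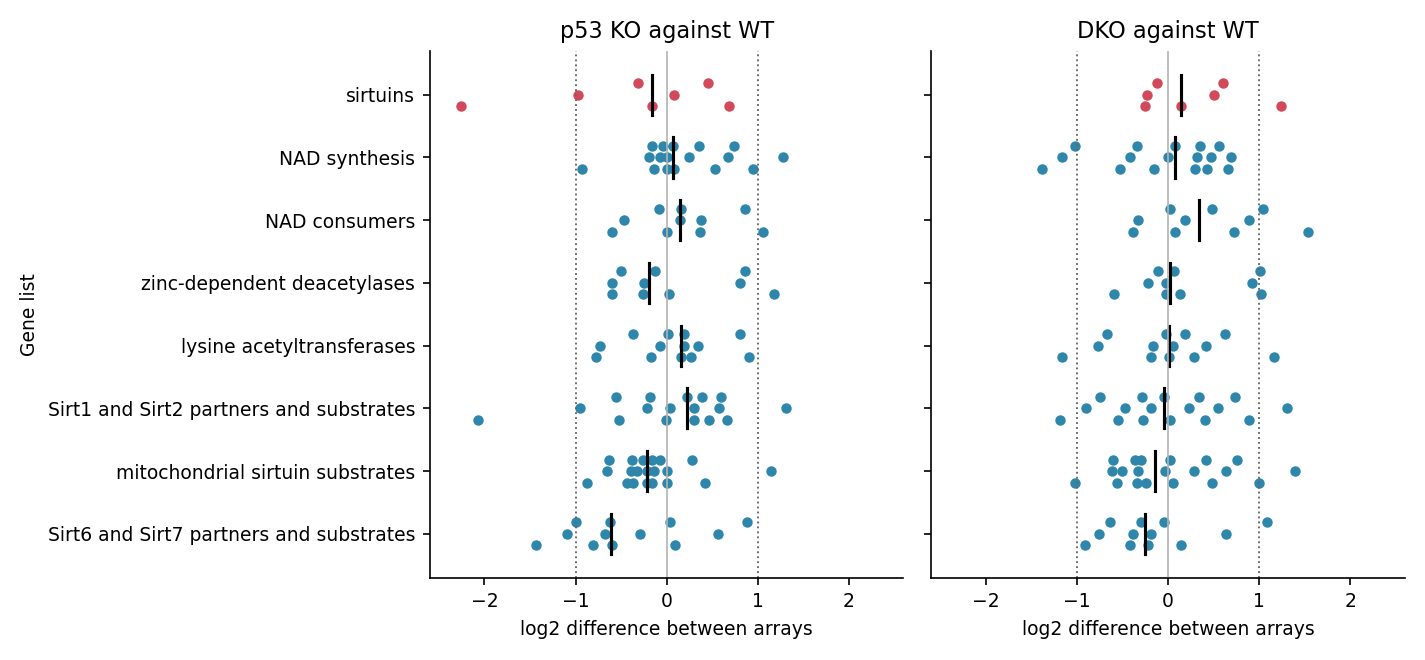
Log2 differences of measured genes of the sirtuins (red) and of 7 related lists (blue) for p53 KO against WT, left, and DKO against WT, right, 1 point per gene, with list medians as black bars and 2-fold limits dotted. Sirt2 at -2.26 and Acss2 at -2.07 are the lowest points on the left, and the list of Sirt6 and Sirt7 partners has a median of -0.61 there.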

How the data were processed

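Probe set signals of 3 arrays were analysed. The deposited values are linear signal intensities that the authors made with GCOS and MAS5 (no version stated), per the submitters' processing notes. No genome build is stated.

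Probe sets were named through the platform annotation, with symbols updated by Entrez ID (34754) from RefSeq's table. Of the probe sets, 34958 carried 1 symbol, 932 several and 9211 none. The single-gene probe set of highest mean signal stood for each gene, floored at the median of all signals (110.4), and log2 was taken. Differences were computed in Python 3.11.15 and tested on simulated data. Alternatives were quantile normalization and cyclic loess (limma 3.58.1, 3 iterations), other floors, a pseudocount of 32, mean or transcript-unique probe sets, and other fold thresholds.

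The members, lists and settings were chosen with earlier results of these data known. The text names every sirtuin probe set, up to 4 measured members per other list with the largest differences in a comparison, the measured neighbours of Sirt2 (those of the other sirtuins as counts), the 8 genes nearest to Sirt2, and Elf4. Nampt, Ccar2, Foxo3, Procr, Ccdc68, Ccdc86 and the named neighbours of Sirt3, Sirt5 and Sirt6 fall outside that rule and were added after their values were seen. The number of arrays, 1 per genotype, limits the precision.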

Additional observations from a re-analysis of the deposited data

How the results depend on the processing

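No paired analysis was possible because each genotype has 1 array, and for the same reason no array could be left out. Of 135 sirtuin differences recomputed under the alternatives, 130 moved by less than the robust SD per probe set given above, though many could not move by construction. With the floor at the 75th percentile, Sirt2 was at -0.60 for p53 KO against WT and at 0.37 for DKO against p53 KO, Sirt5 was at 0.20 for the latter, Sirt4 and Sirt6 were not measured, and 0 sirtuins passed 2-fold in any comparison. By construction such values are bounds. Of the 4 alternatives that could move the p53 KO difference of Sirt2, the value that chose the family, 3 left it past 2-fold, and it has no probe set unique to a transcript. Such probe sets put Sirt5 at -1.10 for p53 KO against WT and at 1.60 for DKO against p53 KO, and the median of zinc-dependent deacetylases at 0.44 for DKO against WT. The floor at the 75th percentile put the median of NAD synthesis at -0.43 on DKO against WT and at -0.86 on DKO against p53 KO. On p53 KO against WT, 2 sirtuins were at least 2-fold lower with quantile normalization and with cyclic loess, Sirt4 being added. On DKO against p53 KO, 1 was at least 2-fold higher with either scaling or with a pseudocount. At 1.5-fold, 1 sirtuin was higher and 2 lower on p53 KO, 2 were higher on DKO against WT and 4 on DKO against p53 KO. At 3-fold, 0 were higher on DKO against WT and 1 on DKO against p53 KO.

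Counts over all genes follow as higher and lower for p53 KO against WT, then DKO against WT, then DKO against p53 KO. The floor at the 25th percentile gave 1531 and 895, 1861 and 755, and 1553 and 1200. The floor at the 75th gave 417 and 234, 202 and 233, and 159 and 465. The mean over probe sets gave 518 and 245, 340 and 238, and 259 and 495. At 1.5-fold there were 1936 and 1571, 2157 and 1199, and 2140 and 1532, and at 3-fold 230 and 64, 95 and 106, and 54 and 314. Cyclic loess gave 432 higher on DKO than on WT, and 317 higher on DKO than on p53 KO. It moved the median of all genes by -0.11 for DKO against p53 KO. Of all calls, 62.8% were higher for DKO against WT, 49.4% with quantile normalization and 47% with cyclic loess, and for DKO against p53 KO 40.9% were, and 26.5% with cyclic loess. Unless stated otherwise, the cause of a move was not tested. Signals near the floor limit what can be said of Sirt4 and of the p53 KO value of Sirt2.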

Other observations

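Genes whose promoter windows held the pattern shown for Sirt2 and Sirt4 were described as a group, chosen after the sequences were read. Of 461 measured genes with at least 1 match to ACTACA, any 2 bases and TCCC, 18 were at least 2-fold lower and 18 at least 2-fold higher on p53 KO against WT, which is 3.9% each, beside 3.19% and 6.51% of all measured genes. Their median log2 difference was -0.09. With at least 2 matches, 3 of 68 were at least 2-fold lower (4.41%) and 1 was higher (1.47%), and the median was -0.26. Sirt2 is 1 of those 3. On p53 KO against WT, the share lowered by 2-fold in these groups was thus close to that of all measured genes, while the share raised was under it. On DKO against p53 KO, 23 of the 461 (4.99%) and 5 of the 68 (7.35%) were at least 2-fold higher, beside 4.1% of all measured genes. Sirt2 and Sirt4, whose sequences were read before the pattern was chosen, are in both of these counts, so the counts support nothing about the pattern. At least 2-fold lower were 3.25% and 2.94%, beside 5.93%. Their medians there were 0.23 and 0.26, beside 0.11.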
